A study of Mus musculus with 13 samples.

Results

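The array carried probes for 3871 strand-specific lincRNA regions on mouse chromosomes 1 to 19 outside chromosomes 3 and 4, and 2557 of these were detected and are described here. A region is named on the array only by its chromosome, start, end and strand (F or R, read here as forward and reverse), on the mm9 build that the array files give. That these features are lincRNAs is how the array type is known to be designed; the files name no gene for them, and nothing measured here bears on whether they code for protein. A region was taken as detected when at least 1 of its probes was well above background, as judged by the scanner software, on all arrays of 1 group or more. Detection therefore used the signals themselves, and a region seen in 1 group alone was chosen on a value that also enters the comparison. Across the whole array there were 4607 lincRNA regions, of which 151 detected on chromosome 3 and 207 on chromosome 4 are not part of the set, and 22982 features of all kinds were tested together.

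LincRNAs are long transcripts from the space between protein-coding genes that carry no long open reading frame. Many were first found from chromatin, as stretches with trimethylated histone H3 lysine 4 at a promoter followed by trimethylated lysine 36 over a transcribed body, and several of those found in embryonic stem cells (ESCs) take part in keeping the pluripotent state. Jmjd2a, Jmjd2b and Jmjd2c (now Kdm4a, Kdm4b and Kdm4c) are histone demethylases that remove methyl groups from lysines 9 and 36 of histone H3, marks of silenced chromatin and of transcribed gene bodies.

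The samples were total RNA of 6 independently established C57Bl/6 ESC lines, each grown without OHT (control) and with it, giving 4 groups of 3 lines. The 2ac lines, named cl4, cl5 and cl6, were floxed at both copies of 2 genes, Jmjd2a(f/f) and Jmjd2c(f/f). The 2abc lines, which are named cl280.4, cl324.9 and cl324.13, were in addition Jmjd2b(f/f), and all lines carried Rosa26::CreERT2. OHT, which activates the CreERT2 recombinase that all 6 lines express from the Rosa26 locus, was given at 500 nM for 12 days, and cells were harvested 6 days later. Every group grew on gelatin without serum in N2B27 with LIF, the MEK inhibitor PD0325901 and a GSK3 inhibitor. Every OHT culture carried both the drug with active Cre and the deletion, so drug, recombinase and deletion cannot be told apart here. The comparison of OHT with control asks what changed once the demethylases were deleted.

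Loss of the targeted genes matched the labels for Kdm4c, whose signal changed by -2.90 (log2) in 2ac and -3.21 in 2abc, and for Kdm4b, which changed by 0.12 in 2ac and -2.22 in 2abc. Kdm4a changed by -0.74 and -0.67, and whether its probe lies in the deleted part is not stated in the sources used here. All 10 ESC markers were well above background on all 13 arrays, and 3 of them (Zfp42, Tdgf1 and Fbxo15) were lower with OHT. Of the markers of other cells, 1 of 8 fibroblast genes (Col1a2, changed by 0.97) was higher and 1 of 7 blood genes (Cd3e, changed by -0.69) was lower. In each of these lists 3 genes were above background on all 13 arrays: Col1a1, Col1a2 and Thy1, and Cd3e, Csf1r and Itgam. Postn and Dcn, and Hbb-b1 and Hbb-bt, were above background on 0 arrays, and the remaining genes on some. Of 7 primitive endoderm genes 1 was higher (Gata6) and 3 lower, and their summed signal, in multiples of the array's 75th percentile, was 310 to 337 in control samples and 210 to 298 in OHT samples. That sum is mostly the signal of Sparc, at a log2 level of 8.27 in 2abc and 8.24 in 2ac controls, with Lama1 next at 3.87 and 3.76. Of 6 trophectoderm genes 1 was higher (Cdx2) and 1 lower (Krt7), with summed signals of 18.8 to 26.9 in control and 22.9 to 28.2 in OHT samples. This sum is mostly Tfap2c, at a log2 level of 4.40 in 2abc and 4.32 in 2ac controls. The part of these cell types in the changes of the lincRNA regions was not tested, and RNA of whole cultures cannot tell fewer cells of a type from less RNA per cell.

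Levels are given as log2 signal relative to the 75th percentile of all probes of the same array, so 0 is the level of that percentile and a change of 1 is a doubling. The lincRNA regions were dim: their median level was -2.49, against 0.47 for all other features, and 32.0% to 51.5% of the probes of these regions were well above background per array, against 57.6% to 69.2% of the other probes. Of the 2557 regions, 1237 rested on 1 probe, 1011 on 2 or 3 and 309 on 4 or more, and they were 62 to 508115 bases long with a median of 12076. Forward regions numbered 1302 of 1957 on the array and reverse regions 1255 of 1914. The detected regions of lowest level were chr8:41735904-41745741 on the forward strand (level -5.18) and chr16:93121505-93142255 on the forward strand (-5.07). Just outside the set were chr17:56691095-56693810 on the reverse strand, at -3.77 with a signal well above background on 8 of 13 arrays, and chr17:17142085-17181901 on the forward strand, at -3.85 on 6 of 13.

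Over the 6 lines, 221 of the 2557 regions were higher with OHT and 144 lower, which is 14.3% of them (limma with the line as a block, Benjamini-Hochberg adjusted p under 0.05 over all features). Over all 22982 features the share called was 28.8%, with 14.1% higher and 14.7% lower. The called changes ranged in size from 0.20 to 2.74 with a median of 0.60. Of the 2557 regions, 31 were called at least 2-fold higher and 35 at least 2-fold lower, against 566 and 846 of all 22982 features. Of the 365 called regions, 298 moved the same way in all 6 lines. The median change over the regions was 0.05, against 0.00 over all features. The count fell to 224 without line cl4, 214 without cl5, 232 without cl324.9 and 220 without cl324.13. When every sample was instead centred on the median of the lincRNA regions, 147 were higher and 173 lower, so the excess of rises over falls depended on that scaling.

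The detection rule bears on a part of these calls. Of the regions, 1933 were detected in all 4 groups, and 176 of those were higher and 108 lower. Among the 197 detected in 1 group alone, 16 were higher and 11 lower. Another 7 were detected in both OHT groups and neither control group, and all 7 were called higher, while 16 were detected in both control groups and neither OHT group, of which 10 were called lower. These regions were selected on the difference itself. When only probes well above background on every array were kept, 1930 regions remained, with 190 higher and 119 lower (16.0%, against 32.6% of all 19427 features under that filter).

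Among the called regions that went the same way in all 6 lines, the 10 with the largest rise are here called linc10c, linc17b, linc12a, linc10b, linc5f, linc1a, linc5a, linc15a, linc6a and linc17a, a number for the chromosome and a letter for the order of position. The 10 with the largest fall are linc9a, linc7b, linc16a, linc8c, linc5d, linc8d, linc13d, linc13c, linc17d and linc17c. The sources used here do not say what these transcripts do. They lie on 12 autosomes, and 3 pairs among them overlap on 1 strand (linc17a with linc17b, linc8c with linc8d, and linc13c with linc13d), so they stand for fewer transcripts than 20. The regions linc10b and linc10c are neighbours on 1 strand without overlapping. Of the 20, linc10c and linc12a were detected in the OHT groups alone, linc10b in OHT 2abc alone, linc6a in OHT 2ac alone, and linc9a and linc13c in the control groups alone. They entered the set through the groups where they were high, so their changes are given as a description, with no p-value and with their place among the 20 resting on that selection.

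**Figure D1:**
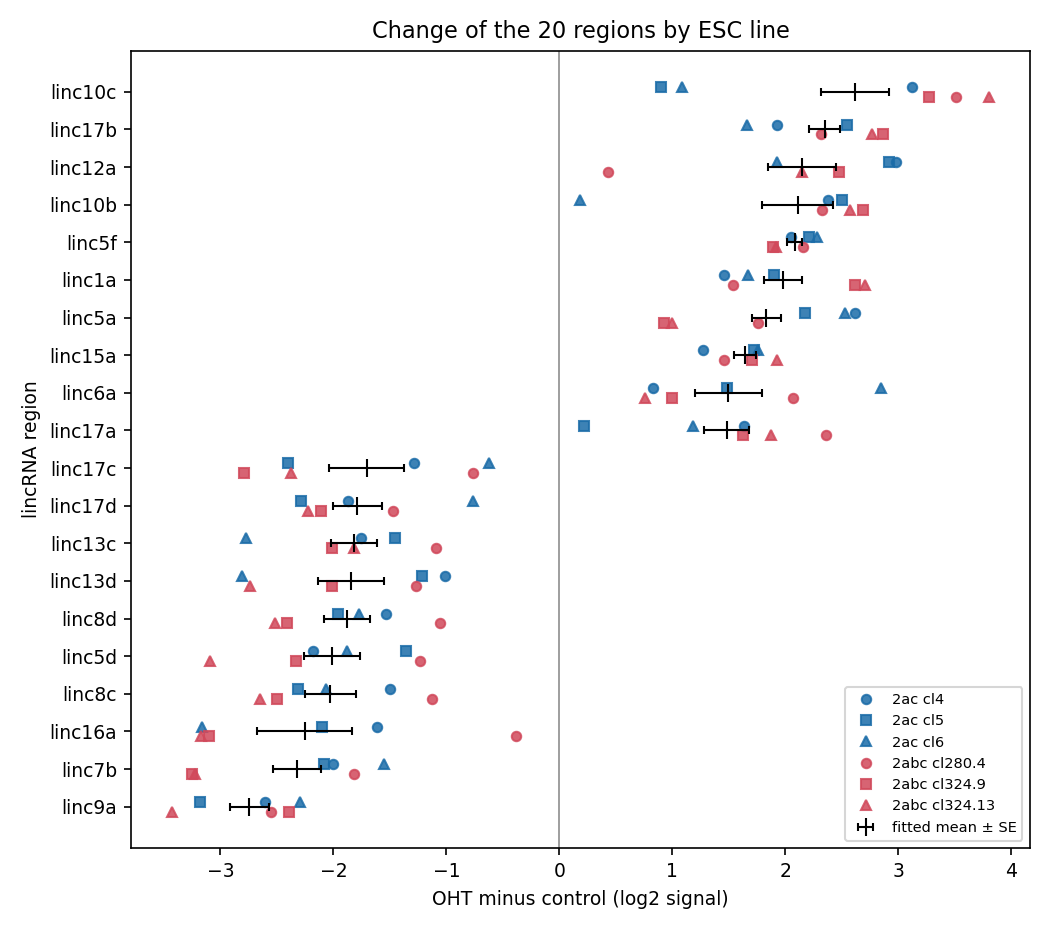
Change of log2 signal (OHT minus control, x axis) in each of the 6 ESC lines for the 10 regions that rose most and the 10 that fell most over the 6 lines (y axis). Blue symbols are 2ac lines, red symbols 2abc lines, and the black bar is the fitted mean over the 6 lines with its SE; the regions were picked for having 1 sign in all lines, and the point nearest to 0 is linc10b in line cl6, at 0.19.

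The steadiest of the large rises was linc5f, at chr5:125713450-125735500 on the reverse strand and measured by 1 probe. Its level in lines cl4, cl5 and cl6 was -3.01, -3.39 and -2.0 in control and -0.96, -1.18 and 0.29 with OHT. In cl280.4, cl324.9 and cl324.13 it was -2.98, -2.63 and -2.74 in control and -0.82, -0.74 and -0.83 with OHT. All OHT samples were above all controls, and line cl6 was the highest of the 2ac lines under both conditions. The change over the 6 lines was 2.08 ± 0.07 (SE), or 4.24-fold, with an adjusted p of 0.000507 in limma, and by line it ran from 1.89 to 2.28.

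The region linc17b, at chr17:15368546-15377747 on the reverse strand, had 3 probes. Its levels were -4.36, -4.91 and -4.23 in the 2ac controls and -2.44, -2.36 and -2.57 in the OHT cultures of cl4, cl5 and cl6. They were -4.53, -4.25 and -3.87 in the 2abc controls and -2.21, -1.38 and -1.10 in the OHT cultures of cl280.4, cl324.9 and cl324.13. Control and OHT samples did not overlap, and the OHT levels of cl324.9 and cl324.13 were the highest. The rise was 2.35 ± 0.14 or 5.09-fold (limma, adjusted p = 0.000729), while its 3 probes gave 1.31 to 3.25. With only probes well above background on every array linc17b rose by 1.31, and by 0.83 in 2ac, and was still called. The longer region linc17a, chr17:15357376-15385701 on the same strand, spans linc17b. The rise of linc17a by 1.48 ± 0.20 (limma, adjusted p = 0.00477) was not shared by all of its probes, which ran from 0.15 to 2.21. With the probe of highest mean alone it was 0.15 and no longer called. It was also 0.15 and not called with only probes well above background on every array.

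The region linc15a, at chr15:92174226-92201201 on the forward strand, rose by 1.64 ± 0.10 or 3.12-fold (limma, adjusted p = 0.000742) in all 5 of its probes, which gave 0.96 to 2.11. Its control levels were -2.67, -2.95 and -2.46 in cl4, cl5 and cl6 and -2.85, -2.78 and -3.07 in cl280.4, cl324.9 and cl324.13. Its OHT levels were -1.40, -1.23 and -0.70 in the 2ac lines and -1.39, -1.07 and -1.14 in the 2abc lines. The lowest OHT sample was thus above the highest control. The region linc1a, at chr1:138592780-138622719 on the forward strand, was -4.04 to -3.01 in the 6 control samples (median -3.55) and -2.42 to -1.20 in the 6 OHT samples (median -1.42). Its 2 probes rose by 1.94 and 2.02, and the region by 1.98 ± 0.17 (limma, adjusted p = 0.0016). The region linc5a, at chr5:35975265-35982561 on the forward strand, rose by 1.83 ± 0.13 (limma, adjusted p = 0.00109), with 4 probes between 1.69 and 1.97.

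The size of the largest rises at the lowest levels rests on signals near background. The region linc10c, at chr10:81615898-81616272 on the forward strand, was well above background on 0 of 6 control arrays and on all 7 OHT arrays, of which line cl4 has 2. Its control levels were -6.67, -4.76 and -5.86 in the 2ac lines and -7.32, -6.23 and -6.19 in the 2abc lines, and its OHT levels were -3.55, -3.86 and -4.78 and then -3.81, -2.96 and -2.38. The highest control, in cl5, was a little above the lowest OHT sample, in cl6. The rise was 3.87-fold when the mean OHT level was set against a floor in the controls. That floor was each control array's lowest signal well above background, or the region's own where that was higher. Probes that are not well above background can lie above such a signal, so the value is no strict bound. The fitted change was 2.61 ± 0.30.

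Its neighbour linc10b, at chr10:81615171-81615810 on the forward strand, was above background on 1 of 6 control and 6 of 7 OHT arrays. Its fitted change was 2.11 ± 0.31, with changes of 2.33 to 2.69 in 5 lines and 0.19 in line cl6. The region linc12a, at chr12:52944867-52971992 on the reverse strand, was above background on 2 of 6 control and all 7 OHT arrays. Its level was between -6.08 and -4.79 (median -5.43) in control and between -4.77 and -2.44 (median -3.16) with OHT, a fitted change of 2.15 ± 0.30, with line cl280.4 the smallest at 0.43. With all probes of a region averaged, linc10b changed by 1.21 and linc12a by 1.18. The region linc6a, at chr6:57583950-57624216 on the forward strand, was spread most within a group: its OHT level was 0.12 in cl6 and -3.07 and -3.33 in cl4 and cl5. It was above background on 4 of 6 control and 6 of 7 OHT arrays, and on all arrays of OHT 2ac alone. Its fitted change was 1.5 ± 0.30, which was no longer called without line cl5, with normexp (0.64) or with the probe of highest mean (1.11).

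The largest fitted fall was that of linc9a, a short region at chr9:4260788-4261404 on the forward strand with 2 probes. Its levels in cl4, cl5 and cl6 were -2.77, -3.12 and -2.10 in control and -5.38, -6.30 and -4.40 with OHT. In cl280.4, cl324.9 and cl324.13 they were -3.46, -2.45 and -2.71 in control and -6.01, -4.84 and -6.14 with OHT. No OHT sample reached a control sample, and the region was above background on all 6 control arrays but on 3 of 7 OHT arrays. Its fitted change was -2.74 ± 0.18, with probes at -3.38 and -2.11, and it rests on OHT signals that were mostly not well above background.

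The region linc7b, at chr7:114369337-114407862 on the reverse strand, fell by 2.32 ± 0.21 or 5.0-fold (limma, adjusted p = 0.00194). It went from -1.51, -1.69 and -1.91 to -3.51, -3.77 and -3.46 in cl4, cl5 and cl6, and from -1.47, -1.35 and -1.17 to -3.29, -4.60 and -4.40 in cl280.4, cl324.9 and cl324.13. Its 4 probes all fell, between -2.95 and -1.14, and the 2 lines cl324.9 and cl324.13 ended lowest. With only probes well above background on every array it fell by 1.14.

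The region linc8c, at chr8:89996710-90049453 on the forward strand, was among the brightest of the 20. Its control levels were 0.11, 0.16 and 0.15 in the 2ac lines and 0.56, 0.80 and 0.77 in the 2abc lines, and its OHT levels were -1.39, -2.16 and -1.92 and then -0.57, -1.69 and -1.88. The controls of a genotype lay closer together than its OHT cultures, and no OHT sample reached a control. It fell by 2.03 ± 0.23 (limma, adjusted p = 0.00313) and the 3 probes gave -2.21 to -1.93. The region linc8d, chr8:90048940-90049461, which overlaps the end of linc8c on the same strand with 3 probes of its own, fell by 1.88 ± 0.20 (limma, adjusted p = 0.00294).

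The other falls were of like size. On chromosome 16, linc16a (chr16:17833211-17835112, forward) fell by 2.25 ± 0.42 (limma, adjusted p = 0.0127), and here line cl280.4 changed by only -0.38 where the others changed by -3.17 to -1.62. On chromosome 5, linc5d (chr5:110891642-110918642, reverse) fell by 2.01 ± 0.25 in all 4 of its probes. On chromosome 13, linc13c (chr13:114106455-114118105, forward) and the shorter linc13d within it (chr13:114111261-114117957) had changes of -1.82 ± 0.21 and -1.84 ± 0.29. On chromosome 17, linc17d (chr17:29571806-29603008, forward) fell by 1.79 ± 0.21, and linc17c (chr17:17492400-17507525, reverse, 1 probe) fell by 1.71 ± 0.33, a call lost without line cl324.13. Limma's adjusted p for linc5d, linc13d, linc17d and linc17c was 0.00369 to 0.0145.

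**Figure D2:**
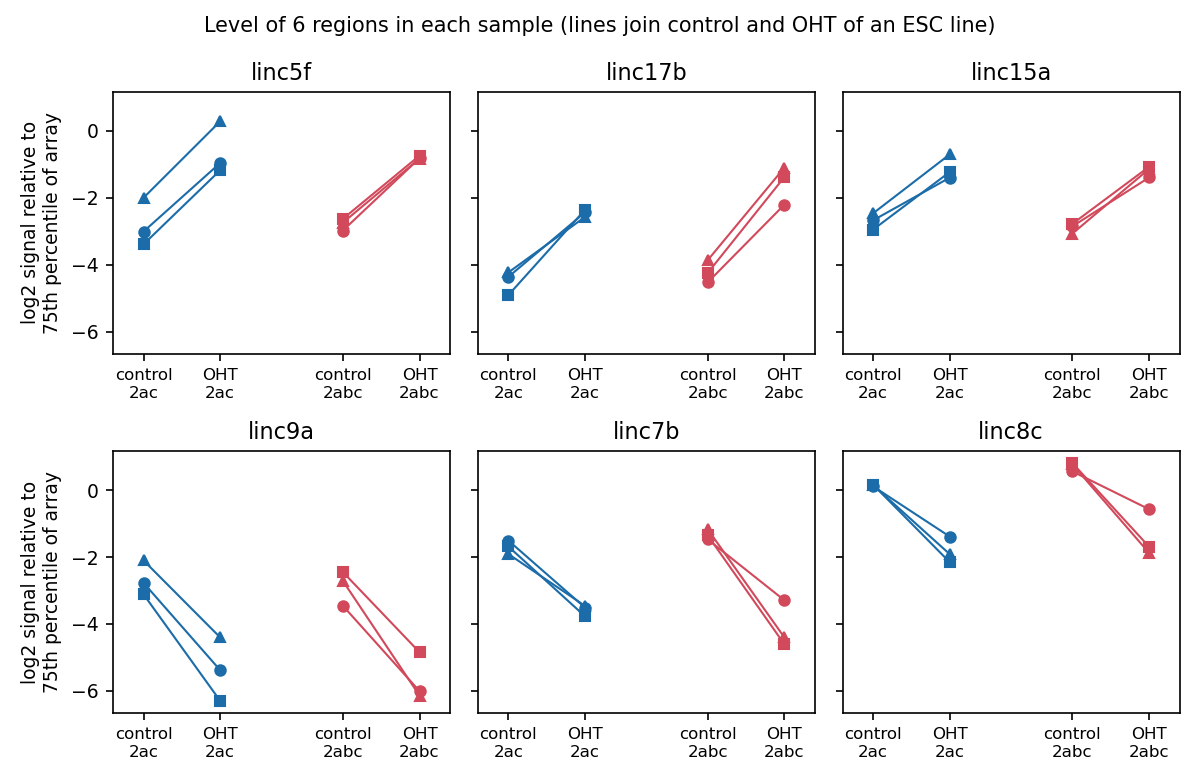
Level of 3 regions that rose and 3 that fell, in log2 signal relative to the array's 75th percentile (y axis), in control and OHT cultures of the 2ac lines (blue) and the 2abc lines (red). Each line joins the 2 cultures of an ESC line. All lines of the upper row go up and all of the lower row go down, with linc8c the brightest in control and linc9a the dimmest after OHT.

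The sizes of these changes differed in a setting that took another signal column (the median signal), another background correction (normexp) and an offset of 50 added to every corrected signal, so these choices cannot be told apart. In that setting, called normexp here, the 10 rises lay between 0.48 and 1.49 and the 10 falls between -1.63 and -0.59, and 15 of the 20 moved by more than 1.5-fold. There linc10c changed by 0.66, linc10b by 0.48, linc12a by 0.58 and linc9a by -0.83, whereas linc8d kept -1.63 and linc5a 1.49. Under normexp 19 of the 20 kept their call, linc6a being the exception. The authors' deposited table holds 11 of the 20, whose changes computed from it ran from 0.11 (linc17a, not called) to 1.39 (linc5a) and from -1.76 (linc8c) to -1.09 (linc17c).

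Within a genotype the counts were smaller. In the 2ac lines 91 regions were higher and 60 lower (5.91%, against 12.5% of all features, 5.86% higher and 6.61% lower), and the median change was 0.09, against 0.02 over all features. With arrays scaled on the median of all probes the split was 56 higher and 63 lower, and with samples centred on the regions it was 41 and 76, so the balance of rises and falls in 2ac depended on the scaling. The count fell from 151 to 12 without cl4, to 7 without cl5, to 86 without cl324.9 and to 90 without cl324.13. In the 2abc lines 140 were higher and 108 lower (9.70%, against 17.8% of all features, 8.71% higher and 9.07% lower), with a median change of 0.01. That count of 248 fell to 15 without cl324.9, 12 without cl324.13, 146 without cl4 and 147 without cl5.

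Among the regions called in 2ac with the same sign in its 3 lines, the 5 with the largest rise were linc12a (2.61 ± 0.42), linc5a (2.44 ± 0.19), linc5f (2.18 ± 0.09), linc17b (2.05 ± 0.19) and linc1a (1.68 ± 0.24), with limma's adjusted p from 0.00213 to 0.0145 for the regions other than linc12a. The 5 such regions with the largest fall were linc9a (-2.70 ± 0.25), linc13c (-1.99 ± 0.29), linc8c (-1.96 ± 0.32), linc10a (-1.90 ± 0.26) and linc7b (-1.88 ± 0.30). Limma's adjusted p was 0.0191 for linc8c and 0.0183 for linc7b. Of the other regions named here, linc16a changed by -2.29 in 2ac and was not called (limma, adjusted p = 0.0602), nor were linc6a at 1.72, linc10c at 1.70 and linc10b at 1.69, each above linc1a. The region linc10a, at chr10:61486151-61488363 on the forward strand with 1 probe, was -3.36, -4.24 and -3.95 in the 2ac controls and -4.72, -6.41 and -6.11 with OHT. None of those 4 OHT arrays was above background for it. With a floor for these arrays, set as for linc10c above, the fall was 3.10-fold, which is no strict bound. The region was detected in control 2abc alone, so its changes are given without a p-value. The 2ac call of linc10a was lost with normexp, where the change was -0.30, and when all its probes were averaged, where it was -0.77. The 2ac call of linc7b was lost with only probes well above background on every array, at -0.60 (limma, adjusted p = 0.1), and without a filter, at -1.48. With the probe of highest mean linc9a was not called in 2ac (-2.35) or in 2abc (-1.87). Without cl4 or without cl5 the 2ac calls of linc12a, linc1a, linc13c, linc8c and linc7b were lost, as were that of linc10a without cl5 and that of linc8c without cl6. The calls of linc5a, linc5f and linc17b in 2ac held in all 20 alternatives.

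In 2abc the 5 largest rises among such regions were those of linc10c (3.53 ± 0.43), linc17b (2.65 ± 0.19), linc10b (2.53 ± 0.45), linc2a (2.41 ± 0.54) and linc1a (2.29 ± 0.24), with limma's adjusted p from 0.00393 to 0.0339 for linc17b, linc2a and linc1a. Neither linc10c nor linc10b was above background on any of the 3 control arrays. Against the same kind of floor linc10c was 6.02-fold and linc10b 4.68-fold higher in 2abc, which is no strict bound. With normexp their changes in 2abc were 0.86 and 0.54. The 5 largest called falls were those of linc9a (-2.79 ± 0.25), linc7b (-2.77 ± 0.30), linc6b (-2.48 ± 0.64), linc5d (-2.22 ± 0.35) and linc8c (-2.09 ± 0.32), with adjusted p from 0.00717 to 0.0142 for linc7b, linc5d and linc8c. The fall of linc16a in 2abc was larger than that of linc8c, at -2.22, and was not called (limma, adjusted p = 0.0536). The regions linc9a and linc6b were detected in the control groups alone. Without cl324.9 or without cl324.13 all of these 10 calls were lost except those of linc17b and linc9a, the latter lost with the probe of highest mean.

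Among these, linc2a and linc6b rested most on lines cl324.9 and cl324.13. The region linc2a, at chr2:77146893-77155643 on the forward strand, was -3.85, -3.30 and -3.92 in the 2abc controls and -3.15, 0.38 and -1.07 with OHT. In the 2ac lines it was -3.12, -1.45 and -3.10 in control and -2.69, -1.94 and -3.44 with OHT, a change of -0.14 ± 0.54. The region linc6b, at chr6:82608223-82669023 on the reverse strand, went from -1.92, -2.42 and -2.56 to -2.60, -5.81 and -5.92 in the 2abc lines, so line cl280.4 changed least. In the 2ac lines linc6b changed by -1.20 ± 0.64 and was not called. Both regions rested on 1 probe that passed, of 5 and 10 on the array, and both lost the call when all probes of the region were averaged. Each lost its call in 9 of 18 alternatives.

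The effects of the 2 genotypes were also compared directly, as the OHT change in 2abc minus that in 2ac. Here limma called 0 of the 2557 regions and 0% of all features, with a smallest adjusted p of 0.291 among the regions. An unadjusted p under 0.05 in limma was found for 141 regions, or 5.51% of them, against 10.9% of all features. The differences ran from -2.11 to 2.57, with a median SE of 0.243. For linc2a the difference was 2.54 ± 0.77 (limma, adjusted p = 0.38) and for linc5a -1.21 ± 0.26 (0.322). For linc6b, detected in the control groups alone, it was -1.28 ± 0.91. For linc10c, detected in the OHT groups alone, it was 1.83 ± 0.60, and no p-value is given for these regions. Of the regions called in 2ac, 104 or 68.9% were called in 2abc too, which is 41.9% of those called in 2abc, and 100 of the 104 had the same sign. The same overlap over all features was not computed, so these shares cannot be read as particular to the regions. The 2 genotypes share no sample, but 1 fit gave both effects the same estimate of the spread, so their calls are not independent. Without the 2abc line cl324.9, the calls in 2ac fell from 151 to 86. Across all 2557 regions the changes of the 2 genotypes correlated at r = 0.62, a value over regions that share arrays and partly overlap.

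The lines of a genotype did not shift alike. The median change of the regions was 0.22 in cl4, 0.23 in cl5 and -0.22 in cl6, and 0.11, -0.16 and 0.08 in cl280.4, cl324.9 and cl324.13. The medians of all other features lay between -0.08 and 0.06. When the arrays were scaled on the median of all probes, the medians of the regions were 0.16, 0.09 and -0.07 in the 2ac lines and -0.05, -0.02 and 0.14 in the 2abc lines, so the sign for cl280.4 turned with the scaling. Lines cl6 and cl280.4 had many probes above background, 61.6% to 63.9% of all probes, against 50.1% to 57.1% in cl5, cl324.9 and cl324.13 and 52.9% to 61.6% on the arrays of cl4. All arrays of cl6 and of the 2abc lines were on the slide of 8 arrays, and those of cl4 and cl5 on the other slides. The parts of slide and of the share of probes above background in the shifts were not tested. Changes of 2 lines correlated over the regions at 0.27 to 0.52, highest between cl4 and cl5 and lowest between cl6 and cl280.4, and the SD of the changes ran from 0.40 in cl280.4 to 0.69 in cl324.13.

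**Figure D3:**
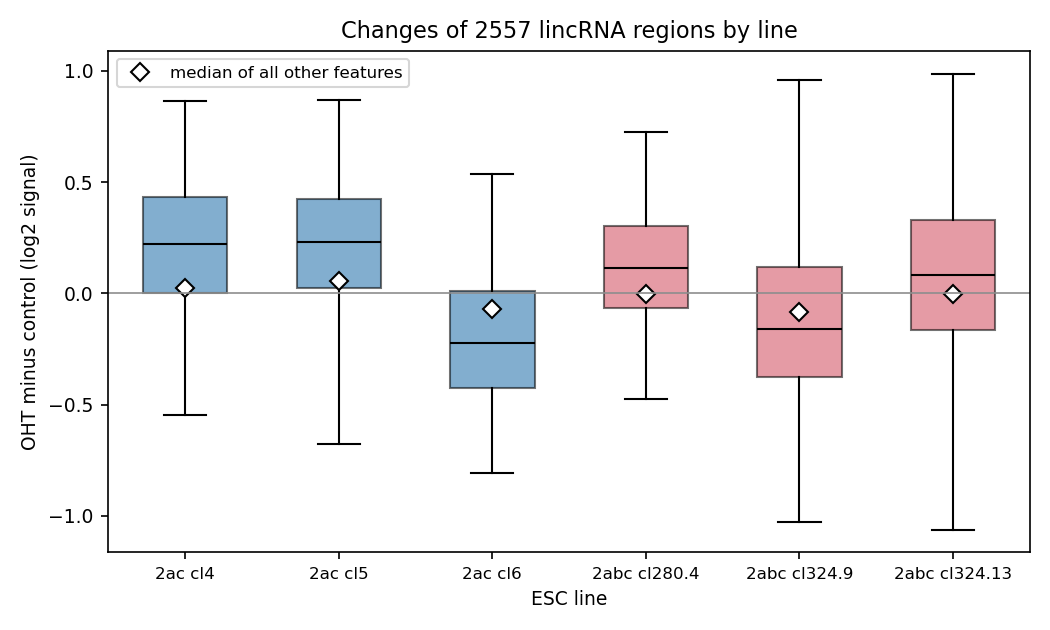
Change of log2 signal (OHT minus control, y axis) of the 2557 lincRNA regions in each ESC line (x axis): boxes span the quartiles with the median as a bar, and whiskers reach the 5th and 95th percentile. White diamonds mark the median of all other features; the regions' medians run from -0.22 in cl6 to 0.23 in cl5, farther from 0 than the diamonds in every line.

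Next the 2 strands of a region were compared. The array held 909 of these regions as both a forward and a reverse version with the same coordinates, and in 517 both strands were detected. The change of 1 strand was set against that of the other within each sample, so that the level of a probe was never compared with that of another probe. Over the 6 lines the strands changed differently in 31 of the 517 pairs (6.00%, against 5.41% of the 610 pairs of all chromosomes; limma, adjusted p under 0.05), with the forward change above the reverse in 14 and below it in 17. Within a genotype the strands differed in 6 of the 517 pairs in 2ac (0.984% of the 610) and in 13 in 2abc (2.3%). In 12 pairs both strands were called, 5 up and 7 down and 0 in opposite directions, in 114 pairs 1 strand alone was called, and in 391 neither was. Across the 517 pairs the 2 strands' changes correlated at r = 0.21 and had the same sign in 303. The 31 pairs became 11 without cl4, 13 without cl5, 18 without cl324.9, 13 without cl324.13 and 4 without both cl6 and cl280.4.

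**Figure D4:**
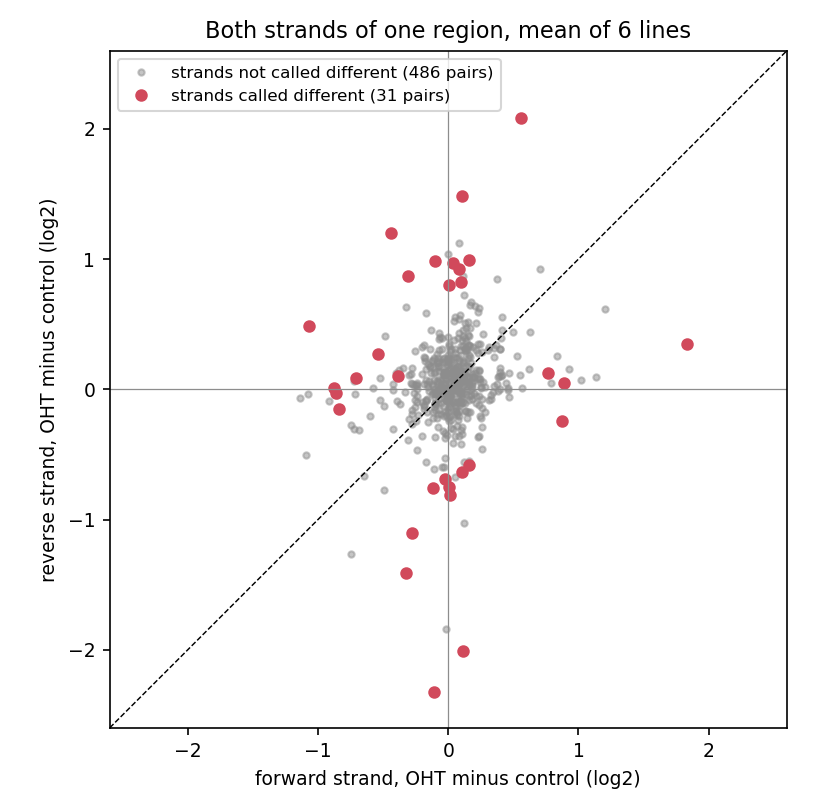
Change over the 6 lines (OHT minus control, log2 signal) of the forward strand (x axis) and the reverse strand (y axis) for the 517 regions detected on both strands; the dashed line marks equal change. Red points are the 31 pairs whose strands changed differently (limma, adjusted p under 0.05), and most of them lie near the x or the y axis, where 1 strand changed little.

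The pair with the smallest adjusted p for a strand difference was linc7a and linc7b, the forward and reverse strands of chr7:114369337-114407862. The forward strand, linc7a, was -3.29, -3.01 and -3.36 in the 2ac controls and -3.10, -2.70 and -3.23 with OHT, and -3.72, -3.31 and -3.37 in the 2abc controls and -3.43, -4.20 and -4.04 with OHT. It changed by -0.11 ± 0.16 (limma, adjusted p = 0.655), by 0.22 in 2ac and -0.43 in 2abc, where linc7b fell by 2.32 in the levels given above. The values of linc7a rest on 1 of its 5 probes, which was above background on 1 of 3 OHT arrays of 2abc. Its control levels were near those linc7b reached with OHT, so a fall as large as that of linc7b would have been hard to measure. The forward change exceeded the reverse by 2.22 ± 0.13 (limma, adjusted p = 0.000507), and by 1.69 to 2.55 in the single lines.

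For linc5e and linc5f, the strands of chr5:125713450-125735500, both rose but by unequal amounts. The forward strand, linc5e, was at -2.92, -2.60 and -2.97 in control and -2.29, -1.89 and -2.19 with OHT in the 2ac lines, and at -3.39, -3.49 and -3.27 and then -3.00, -2.89 and -3.02 in the 2abc lines. Its rise was 0.56 ± 0.07 (limma, adjusted p = 0.00355), present in all 6 lines. The reverse strand rose by more, with a forward minus reverse change of -1.53 ± 0.10 (limma, adjusted p = 0.000669).

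In 3 more pairs 1 strand rose and the other did not pass the test. At chr11:96111499-96126224 the reverse strand, linc11b, went from -0.86, -0.72 and -0.73 to 0.27, 0.30 and 0.14 in 2ac and from -0.72, -0.91 and -0.75 to 0.10, 0.23 and 0.20 in 2abc, with no overlap. It rose by 0.99 ± 0.07 (limma, adjusted p = 0.00109), while linc11a, the forward strand, changed by 0.16 ± 0.08. The 2 probes of linc11b gave 0.08 and 1.90 and so disagreed. At chr7:134369091-134376366 linc7d, the reverse strand, rose by 0.80 ± 0.10 (limma, adjusted p = 0.00417) and linc7c, the forward strand, changed by 0.01 ± 0.09. At chr5:92548501-92566401 linc5b, the forward strand, rose by 0.87 ± 0.17 (limma, adjusted p = 0.0137) and linc5c, the reverse strand, changed by -0.24 ± 0.14. Both linc7c and linc5c rest on 1 passing probe, of 5 and 6 on the array, and linc5c was dim, at a mean level of -3.68. The strand differences of these 3 pairs (adjusted p from 0.00653 to 0.00877) were lost when all probes of a region were averaged and without cl6 and cl280.4 together, while those of linc7a and linc7b and of linc5e and linc5f held in all alternatives.

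Other pairs moved together on both strands. At chr9:118291593-118324230 linc9b (forward) rose by 1.21 ± 0.14 and linc9c (reverse) by 0.62 ± 0.09, and at chr10:94900849-94928059 linc10d rose by 0.70 ± 0.16 and linc10e by 0.92 ± 0.08. At chr8:74473445-74496948 linc8a (forward) fell by 1.09 ± 0.10, from 0.59 to 0.78 in the controls to -0.79 to -0.07 with OHT, and linc8b (reverse) fell by 0.50 ± 0.09. At chr13:98221098-98480773 linc13a (forward) fell by 0.75 ± 0.18 and linc13b (reverse) changed by -1.26 ± 0.13. Limma's adjusted p for these regions lay between 0.00188 and 0.0289, leaving out linc13b, which was detected in control 2ac alone. Their strand differences were not called, the smallest adjusted p being 0.0525 for linc8a and linc8b.

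Regions that overlap on 1 strand can share a transcript and are not independent. The 2557 regions fell into 2000 loci, a locus being a run of regions overlapping on 1 strand, and 416 loci held 2 or more. In 310 loci at least 1 region was called, with only rises in 184, only falls in 125 and both in 1 (chr17:29183003-29217681, reverse, -0.33 and 0.29). Over the 613 overlapping pairs on 1 strand the changes correlated at r = 0.49, and in 56 of the 57 such pairs in which both were called the signs were the same. For neighbours on 1 strand less than 10 kb apart r was 0.40 (205 pairs), for those 10 to 100 kb apart 0.09 (553 pairs) and for those 100 kb to 1 Mb apart 0.05 (2338 pairs). On opposite strands the values were 0.20 for overlapping regions, 0.13 below 10 kb and 0.03 in both wider ranges. The values are descriptions over regions that share arrays, and overlapping regions can also share probe targets.

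A few loci with several called regions show how far such changes reach; they were picked after their values were seen. At chr1:138567345-138632310 on the forward strand all 4 overlapping regions rose, by 0.36 to 1.98, linc1a being the largest. At chr5:137392195-137426421 on the forward strand 3 of 3 regions rose, by 0.93 to 1.02. At chr14:26834450-26847000 on the forward strand 3 of 3 regions fell, with changes between -0.80 and -0.63.

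Probes of a region are not replicates of a condition, and their positions within it are not known here. The value of a region is the mean of these same probes, and the call was made on that mean. Agreement of probes with their region, and its excess in called regions, is thus largely fixed in advance and is no separate support. In the 180 called regions with 3 or more probes, 691 of 710 probes (97.3%) moved in the direction of their region, and in 162 regions all probes did. In the 539 regions of that kind that were not called, all probes moved 1 way in 202. In the 75 called regions with 2 probes both moved the same way, against 310 of 526 that were not called. The share called was 8.89% of regions with 1 probe, 12.5% with 2, 26.1% with 3 and 23.6% with 4 or more. Median levels also differed between these classes, at -2.75, -2.58, -2.16 and -1.80, and the parts of probe number and level in the shares were not tested apart.

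Since the regions are dim, their share called was also set beside that of other features of like level. Among regions under a level of -4, 16.3% of 153 were called, against 32.5% of 679 other features. From -4 to -2, where 57.1% of the regions lie, the shares were 12.0% of 1461 and 23.9% of 4472. From -2 to 0 they were 16.3% of 664 and 35.9% of 3929, and above 0 they were 20.4% of 279 and 32.0% of 10892. No test was made of these shares, since regions overlap. The median SE of a change was 0.192 for regions and 0.214 for other features under -4, and 0.136 and 0.154 from -4 to -2. From -2 to 0 it was 0.104 and 0.108, and above 0 it was 0.0808 and 0.0693. Over all levels it was 0.121 for regions and 0.0907 for other features.

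**Figure D5:**
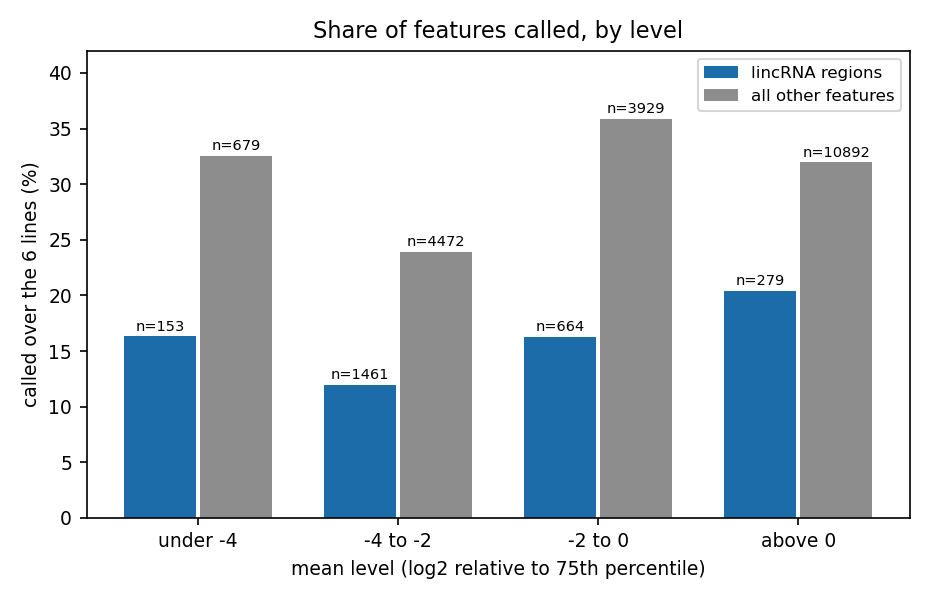
Share of features called over the 6 lines (y axis, percent; limma, adjusted p under 0.05) in 4 ranges of mean level (x axis, log2 relative to the array's 75th percentile) for lincRNA regions (blue) and all other features (grey), with the number of features above each bar. In each range the blue bar is the lower, from 12.0% against 23.9% between -4 and -2 to 20.4% against 32.0% above 0.

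By chromosome, the share called ran from 5.56% on chromosome 18 (4 higher and 2 lower of 108) to 23.0% on chromosome 10 (23 higher and 5 lower of 122). Chromosomes 13 and 14 had more falls than rises, with 7 higher and 22 lower of 184 and with 8 higher and 12 lower of 130, chromosome 17 had 16 of each, and the other 14 had more rises. The regions of chromosomes 3 and 4, outside the set, were called in 15.9% of cases on each, with 20 higher and 4 lower and with 16 higher and 17 lower. By length, 11.2% of the regions up to 1 kb were called, 19.9% of those from 1 to 5 kb, 13.6% from 5 to 20 kb and 14.8% above 20 kb. Forward and reverse regions were called in 15.4% and 13.1% of cases. These counts were not tested against each other.

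Noncoding RNA genes with a name on the array were read from a list of 74 symbols, 39 of which were on the array and 28 tested. The list covers the whole genome: of the genes named here, Platr4, Rmrp, Snhg3 and Ftx lie on chromosomes 3, 4 and X, outside the set of the regions. Over the 6 lines 9 of the 28 were higher and 1 lower, against 14.1% and 14.7% of all features, with a median change of 0.15. The largest rise was that of Neat1, the RNA scaffold of nuclear paraspeckles, by 1.01 ± 0.06 (limma, adjusted p = 0.00072), with line changes of 0.48 to 1.62. Pvt1, the transcript beside the Myc gene, rose by 1.0 ± 0.09 (limma, adjusted p = 0.00173) and by 0.70 to 1.30 in the single lines. Among imprinted noncoding RNAs, H19 rose by 0.87 ± 0.16, Mirg, a microRNA host of the Dlk1-Dio3 domain, by 0.85 ± 0.16, and Kcnq1ot1, the antisense RNA of the Kcnq1 domain, by 0.78 ± 0.11, with limma's adjusted p from 0.00616 to 0.0134. Airn, which silences the Igf2r domain, changed by 0.07 ± 0.09 (limma, adjusted p = 0.611) and Peg13 by 0.23 ± 0.09 (0.115).

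Platr4, a transcript tied to pluripotency, rose by 0.73 ± 0.19, Ftx, a gene of the X inactivation centre, by 0.38 ± 0.10, Rmrp, the RNA of RNase MRP, by 0.33 ± 0.09 and the small nucleolar RNA host Snhg7 by 0.24 ± 0.06 (limma, adjusted p from 0.0237 to 0.0451). The host gene Snhg3 was the 1 that fell, by 0.34 ± 0.08 (limma, adjusted p = 0.021). Malat1, the abundant RNA of nuclear speckles that neighbours Neat1, changed by 0.37 ± 0.16 over the 6 lines (limma, adjusted p = 0.137), by -0.12 in 2ac and by 0.85 in 2abc (adjusted p = 0.0489). In 2ac 2 of the 28 were higher and 1 lower, against 5.86% and 6.61% of all features. In 2abc 7 were higher and 0 lower (limma), against 8.71% and 9.07%. At an unadjusted p under 0.05 (limma), 10 of the 28 were higher and 3 lower in 2abc, against 33.9% of all features in either direction.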

How the data were processed

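Cy3-labelled total RNA was hybridised to 13 Agilent 1-colour arrays. Per the file headers, the deposited spot intensity (processed signal) came from version 11.0.1.1 of Agilent Feature Extraction. On each array 59305 spots were not controls, and the 184 to 253 of them with an outlier flag were left out. Spots of a probe were averaged, and log2 values were taken minus the array's 75th percentile. The authors' deposited table of log2 values, for which the submitters' processing notes name limma, served as an alternative; how it was filtered is not stated in the sources used here.

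The OHT sample of cl4 was on 2 arrays, averaged and counted as 1 of 12 samples (over the regions they correlated at 0.977). A region is the mean of its passing probes and a gene the passing probe of highest mean. All 22982 features were fitted in limma 3.58.1 (R 4.3.3) over 12 samples with the ESC line as a block, leaving 4 residual degrees of freedom, and p-values were adjusted by Benjamini-Hochberg. Strand pairs were fitted in the same way on forward minus reverse differences within a sample. The block rests on the series design, in which each line was grown both ways. As a check, deviations of a line's 2 samples from their group means correlated at 0.16 (cl4), 0.46 (cl5), 0.50 (cl6), 0.03 (cl280.4), -0.02 (cl324.9) and -0.01 (cl324.13). The 3 slides held 2, 3 and 8 arrays, and the number of arrays limits the precision. The first held the control and an OHT array of cl4. The next held the other OHT array of cl4 and both arrays of cl5. The last held all arrays of cl6 and of the 2abc lines, so genotype partly follows slide.

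The regions named are, among called regions with 1 sign in the lines compared, the 10 largest rises and falls over the 6 lines and the 5 of each per genotype, and 5 strand pairs by size and 5 by strand difference. The members and lists were chosen with earlier results of these data known. The fits were tested on simulated data. The files as used hold no probe sequence, probe position or gene name for the regions, so none is printed.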

Additional observations from a re-analysis of the deposited data

Results flagged for a closer look

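Of the 20 regions named over the 6 lines, 1 had a line that stood apart from the other 5 by Dixon's test. The region linc10b (chr10:81615171-81615810, forward) changed by 0.187 in line cl6 and by 2.33 to 2.69 in the other 5 lines. Its control level in cl6, -4.75, was the highest of the 6 controls, and its OHT level there, -4.56, was the lowest of the 6. The gap was 0.855 of the range of the 6 changes, where the test's critical ratio is 0.625. Chance alone passes that critical ratio in about 1 in 20 groups, and 20 were looked at.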

How the results depend on the processing

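Directions held and sizes moved: of 855 values that 20 alternatives gave for the 45 named changes, 787 kept direction and call, 68 kept the direction and lost the call, and 0 reversed. Without a filter on dim probes the calls were 34 in 2ac, 79 in 2abc, 208 over the 6 lines and 19 strand pairs, of 151, 248, 365 and 31. Without lines cl6 and cl280.4, an alternative added after the data were seen, they were 234, 392 and 493 and 4 strand pairs. Strand pairs numbered 63 with normexp on the median signal (also added later) and 47 with the slide as the block. Leaving out cl4, cl5, cl6, cl280.4, cl324.9 and cl324.13 in turn gave 12, 7, 111, 176, 86 and 90 calls in 2ac and 146, 147, 263, 287, 15 and 12 in 2abc. In the same order it gave 224, 214, 419, 380, 232 and 220 calls over the 6 lines and 11, 13, 22, 37, 18 and 13 strand pairs. The difference between genotypes stayed at 0 calls in all alternatives. Causes of these shifts were not tested.

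Without the replicate block there were 155, 246, 370 and 0 region calls (2ac, 2abc, 6 lines, difference) and 35 strand pairs; of the named changes, those of linc6a over the 6 lines and of linc2a and linc6b in 2abc lost their call. The higher share of calls in 2ac, 60.3%, became 47.1% with median scaling and 35.0% centred on the regions (added later), and over the 6 lines 60.5% became 45.9%. The authors' deposited table, which holds 1081 of the regions, gave 152, 188, 252 and 0 calls. Normexp on the mean signal and a comparison with nearest genes were not run, since the files used here give neither mean signals nor gene positions. With normexp on the median signal and an offset of 50, 34 of the 45 changes moved by over 1.5-fold; the parts of signal column, correction and offset cannot be told apart. Where a group's signals were not well above background, the size of a change is uncertain, and a fold set against a floor is no strict bound.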
